A study of Mus musculus with 13 samples.

Results

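Naive T cells are kept quiescent, and on their way through blood and lymphoid organs, by a small set of genes. Here 10 genes were taken up, some from that set and some as transcripts of naive T cells. These are the Krüppel-like factor genes Klf2 and Klf3, the sphingosine 1-phosphate receptor gene S1pr1, the HMG-box factor genes Tcf7 and Lef1, the forkhead genes Foxo1 and Foxp1, the chromatin organiser Satb1, and the naive T cell transcripts Dapl1 and Igfbp4. Members were all probe sets assigned to 1 of these symbols, which gave 35 probe sets for 9 of the 10 genes, out of 45101 probe sets and 18193 genes on the arrays. The expression of Tcf7 is not analysed here, and it enters only the search of promoter sequence. Klf2, S1pr1 and Dapl1 had 1 probe set each, Lef1 2, Foxo1 4, Satb1 5, Igfbp4 6, Klf3 7 and Foxp1 8.

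All cells were CD8+ T cells of P14 mice on a C57Bl/6 background, whose transgene gives most CD8+ T cells the same T cell receptor. Day 3 effector cells of BATF-/- mice (4 arrays) and of mice with intact BATF (wild type, 4 arrays) had been stimulated for 3 days with plate-bound antibodies to CD3 and CD28 plus 100 U/ml human IL-2. Naive cells of BATF-/- mice (3 arrays) and of wild-type mice (2 arrays) were taken on day 0. The labels name no cell type to which the deletion is limited, and ages, sexes and the number of animals are not given in the sources used here.

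In a resting T cell the forkhead factor Foxo1 stays in the nucleus and drives Klf2, and Klf2 in turn drives S1pr1, the receptor through which lymphocytes leave lymph nodes towards the sphingosine 1-phosphate of blood and lymph. Signals from the T cell receptor and from cytokines act through the kinase Akt to move Foxo1 out of the nucleus, so that this axis is shut down when cells are activated. Lef1 and Tcf7 belong to a separate arm, which maintains naive and memory identity, and BATF is an AP-1 family factor that acts with Irf4 in activated lymphocytes.

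Values are log2 intensities, and each gene is described by its brightest probe set unless stated. Changes were tested with limma and adjusted over all 45037 probe sets that are not controls, with an adjusted p under 0.05 counted as passed. Batf lay at 6.77, 5.56, 5.61 and 6.00 in BATF-/- day 3 arrays, against 8.63, 8.80, 8.83 and 9.19 in wild-type day 3 arrays, and at 5.60, 6.06 and 5.94 in BATF-/- naive arrays, against 9.19 and 9.36 in wild-type naive arrays. Every BATF-/- array thus lay below every wild-type array. Where the probes lie relative to the deletion is not given in the sources used here. Median intensities were between 31.4 and 32.4 on all arrays. The 6 measured CD8 T cell markers (among them Cd8a and Cd3e) had mean log2 intensities between 11.63 and 12.11 on every array. BATF-/- naive replicate 1 stood apart: it had the lowest of these CD8 means, and 8 neutrophil and monocyte markers averaged 8.84 on it, against 5.46 and 6.51 on the other BATF-/- naive arrays and 6.34 and 5.82 on the wild-type naive arrays. The BATF-/- falls and the naive genotype differences of the 9 genes are also given without it, as are some list counts.

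Promoter sequence is shown for Klf2 and Dapl1, because these had the largest positive and the largest negative difference between the genotypes at day 3 among the 9 genes. The bases before the start of each gene come from RefSeq (GRCm38.p6, plus strand), at chr8:72318812-72319061 for Klf2 and at chr2:59484403-59484652 for Dapl1. Capitals mark matches to a forkhead motif or a Krüppel-like factor motif.
Klf2: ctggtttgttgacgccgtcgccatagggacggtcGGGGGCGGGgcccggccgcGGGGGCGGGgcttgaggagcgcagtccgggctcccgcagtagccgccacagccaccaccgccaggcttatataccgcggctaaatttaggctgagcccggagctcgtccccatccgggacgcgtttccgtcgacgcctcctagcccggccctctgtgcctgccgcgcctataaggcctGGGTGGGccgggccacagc
Dapl1: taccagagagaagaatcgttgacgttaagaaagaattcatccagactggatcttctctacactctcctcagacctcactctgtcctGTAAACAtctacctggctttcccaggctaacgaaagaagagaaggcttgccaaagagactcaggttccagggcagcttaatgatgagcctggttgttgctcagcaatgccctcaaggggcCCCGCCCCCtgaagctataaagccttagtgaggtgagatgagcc

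The windows searched for motifs ran from 250 bases before to 50 bases after each start, on both strands, and 19 such windows belonged to 9 of the 10 listed genes, with Tcf7 among them and without S1pr1. The forkhead motif GTAAACA was in the Dapl1 window, at bases -164 to -158, and in 1 Tcf7 window, and 3.65% of all 32851 promoter windows hold it. The AP-1 motif TGANTCA, held by 7.81% of all windows, and the TCF/LEF motif CTTTGAT, held by 3.73%, were in 0 of the 19. The ETS motif CCGGAAG was in 1 of the 19, against 8.86% of all windows. The Krüppel-like factor motif CNCNCCC was in 18 of the 19, but 67.9% of all windows hold it, and overlapping matches were counted. A match describes letters, not binding.

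After 3 days of stimulation every one of the 9 genes was lower than in naive cells, in both genotypes, and all 9 passed the test in each. Among all probe sets 19.8% passed as lower in BATF-/- cells and 20.8% in wild-type cells. The median log2 difference of the 9 genes was -1.54 in BATF-/- cells and -1.66 in wild-type cells, where the medians over all probe sets were 0.04 and 0.03. The falls were between 1.33-fold (Foxp1) and 6.25-fold (Igfbp4) in BATF-/- cells and between 1.46-fold (Foxo1) and 6.74-fold (Klf3) in wild-type cells. Without BATF-/- naive replicate 1 the BATF-/- log2 differences were -1.71 for Klf2, -1.88 for S1pr1, -0.66 for Foxo1 and -2.51 for Klf3. They were -0.55 for Foxp1, -1.26 for Lef1, -0.72 for Satb1 and -2.40 for Dapl1 and Igfbp4, and all 9 passed. The BATF-/- percentages of the naive level given below include that array. In bulk samples, fewer cells with an RNA and less of it per cell cannot be told apart.

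**Figure D1:**
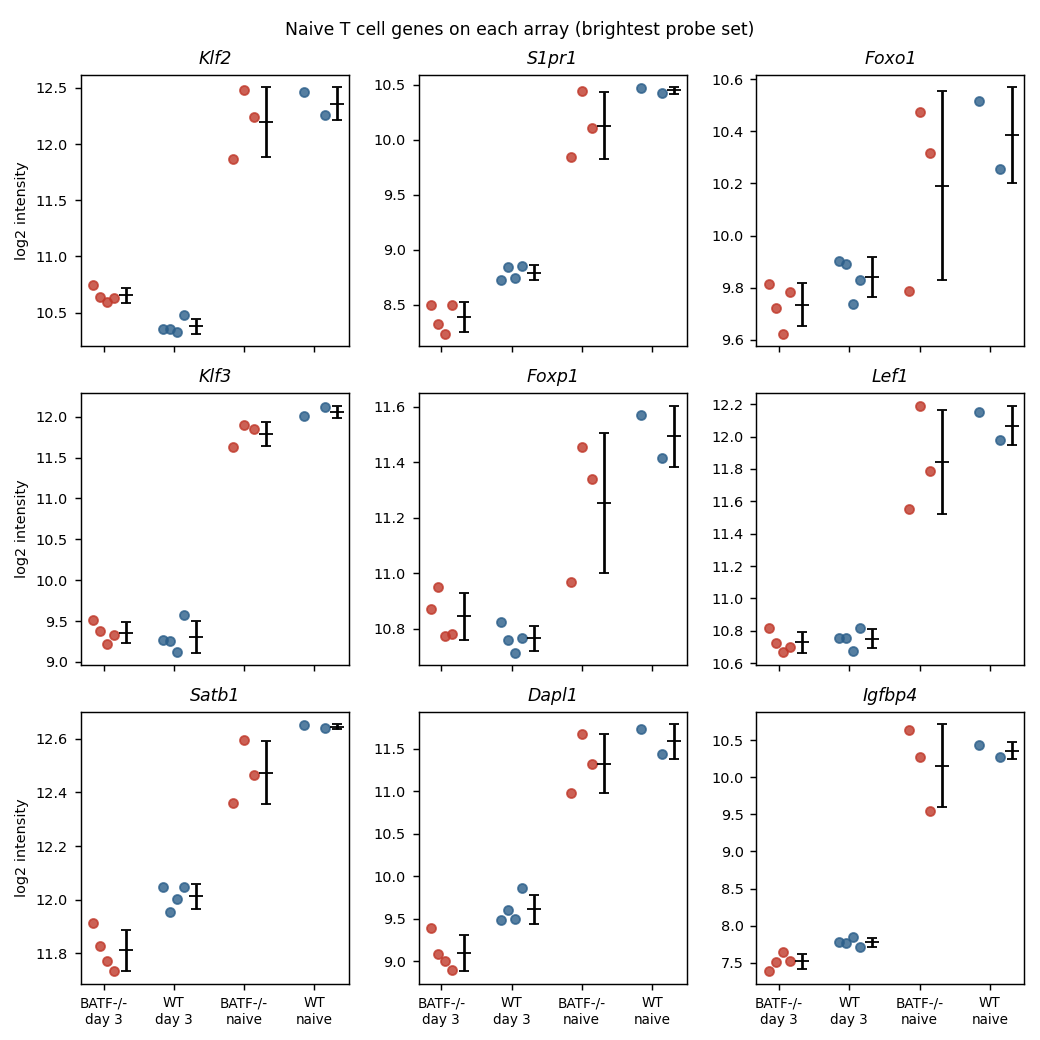
Log2 intensity of the brightest probe set of each of the 9 genes (vertical axes, each gene on its own range) on every array of the 4 groups (horizontal axis; points are arrays, bars are the mean and SD of a group). Naive arrays lie above day 3 arrays for every gene except Foxo1, where BATF-/- naive replicate 1 (9.78) lies among the day 3 arrays.

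Klf2, the factor that keeps T cells quiescent and drives the egress receptor, had log2 intensities of 10.75, 10.64, 10.59 and 10.63 in BATF-/- day 3 arrays and 11.87, 12.48 and 12.24 in BATF-/- naive arrays. In wild-type cells the values were 10.36, 10.36, 10.33 and 10.48 at day 3, and 12.47 and 12.25 in naive arrays. The states did not overlap in either genotype. The log2 difference between day 3 and naive Klf2 was -1.54 ± 0.12 in BATF-/- cells (SE, n = 4 and 3, limma adjusted p = 1.22e-07) and -1.98 ± 0.13 in wild-type cells (n = 4 and 2, limma adjusted p = 4.38e-08). Day 3 cells thus retained 34.3% of the naive level without BATF and 25.3% with it.

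S1pr1, the receptor for egress from lymphoid organs, had values of 8.50, 8.32, 8.24 and 8.50 in BATF-/- day 3 arrays and 9.84, 10.44 and 10.11 in BATF-/- naive arrays. Wild-type values were 8.73, 8.84, 8.75 and 8.86 at day 3, and 10.47 and 10.43 in naive arrays. Again the states did not overlap. Its log2 difference was -1.74 ± 0.12 in BATF-/- cells (limma adjusted p = 4.37e-08) and -1.66 ± 0.13 in wild-type cells (limma adjusted p = 2.67e-07), which left 30.0% and 31.7% of the naive level.

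Foxo1, the forkhead factor upstream of Klf2, changed least in wild-type cells among the brightest probe sets of the 9 genes. It lay at 9.81, 9.72, 9.62 and 9.78 in BATF-/- day 3 arrays and at 9.78, 10.47 and 10.32 in BATF-/- naive arrays, so that these groups overlapped through naive replicate 1. In wild-type cells it lay at 9.90, 9.89, 9.74 and 9.83 at day 3, and at 10.52 and 10.26 in naive arrays, with no overlap. Its log2 difference was -0.46 ± 0.13 in BATF-/- cells (limma adjusted p = 0.0132) and -0.55 ± 0.15 in wild-type cells (limma adjusted p = 0.00947). These calls rest on few arrays. The BATF-/- call was lost without BATF-/- naive replicate 2 (log2 difference -0.32, limma adjusted p = 0.077) or replicate 3 (-0.39, limma adjusted p = 0.0606), and the wild-type call without wild-type naive replicate 1 (-0.42, limma adjusted p = 0.122). Without BATF-/- naive replicate 1 the BATF-/- fall was larger, at -0.66. Another Foxo1 probe set fell by -0.55 in BATF-/- cells (limma adjusted p = 0.0066) and by -0.84 in wild-type cells (limma adjusted p = 0.000783). A further one fell by -0.51 (limma adjusted p = 0.00259) and by -0.62 (limma adjusted p = 0.00161). In both of these the states did not overlap in either genotype, and the dimmest Foxo1 probe set did not pass.

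Klf3, a Krüppel-like factor that mostly represses its targets, had the largest fall of the 9 in wild-type cells. Its values were 9.51, 9.38, 9.22 and 9.32 in BATF-/- day 3 arrays and 11.63, 11.90 and 11.85 in BATF-/- naive arrays. Wild-type values were 9.27, 9.25, 9.12 and 9.58 at day 3, and 12.00 and 12.11 in naive arrays. The log2 difference was -2.43 ± 0.11 in BATF-/- cells (limma adjusted p = 7.97e-10) and -2.75 ± 0.12 in wild-type cells (limma adjusted p = 1.04e-09), so that day 3 cells had 18.5% and 14.8% of the naive level. All 7 Klf3 probe sets fell in both genotypes, but by unequal amounts, with wild-type log2 differences between -0.41 and -2.91.

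Foxp1, a forkhead factor that is needed for naive T cell quiescence, had a smaller fall. Its values were 10.87, 10.95, 10.77 and 10.78 in BATF-/- day 3 arrays and 10.97, 11.45 and 11.34 in BATF-/- naive arrays, against 10.82, 10.76, 10.71 and 10.77 in wild-type day 3 arrays and 11.57 and 11.42 in wild-type naive arrays. The log2 difference was -0.41 ± 0.10 in BATF-/- cells (limma adjusted p = 0.00479) and -0.73 ± 0.11 in wild-type cells (limma adjusted p = 0.000137). In wild-type cells 8 of 8 Foxp1 probe sets fell, and in BATF-/- cells 7 of 8, the other at -0.17 ± 0.13 (limma adjusted p = 0.364).

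Lef1, the partner of Tcf7 in naive and memory T cells, and Satb1, which folds chromatin in thymocytes and T cells, followed. Lef1 lay at 10.82, 10.73, 10.67 and 10.70 in BATF-/- day 3 arrays and at 11.55, 12.19 and 11.79 in BATF-/- naive arrays. In wild-type cells it lay at 10.76, 10.76, 10.68 and 10.82 at day 3, and at 12.15 and 11.98 in naive arrays. Its log2 difference was -1.12 ± 0.12 in BATF-/- cells (limma adjusted p = 3.05e-06) and -1.31 ± 0.13 in wild-type cells (limma adjusted p = 2.21e-06), so that Lef1 kept 46.2% and 40.2% of its naive level. By its brightest probe set Satb1 kept more of its signal, 63.2% in BATF-/- cells and 64.5% in wild-type cells. Its log2 differences were -0.66 ± 0.07 (limma adjusted p = 4.26e-06) and -0.63 ± 0.08 (limma adjusted p = 2.23e-05). The dimmest of the 5 Satb1 probe sets, with a mean of 4.18 below the dim limit of 4.35, did not pass in either genotype. The brighter Satb1 probe sets ranged from -0.66 to -0.82 in BATF-/- cells and from -0.63 to -1.07 in wild-type cells.

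Dapl1 and Igfbp4 were among the strongest falls. Dapl1, named for its likeness to death-associated protein 1, lay at 9.39, 9.08, 9.002 and 8.89 in BATF-/- day 3 arrays and at 10.97, 11.67 and 11.32 in BATF-/- naive arrays, against 9.48, 9.61, 9.50 and 9.86 in wild-type day 3 arrays and 11.73 and 11.44 in wild-type naive arrays. Its log2 difference was -2.23 ± 0.16 in BATF-/- cells (limma adjusted p = 7.13e-08) and -1.97 ± 0.18 in wild-type cells (limma adjusted p = 8.43e-07). Igfbp4, which codes for a secreted protein that binds insulin-like growth factors, lay at 7.38, 7.51, 7.64 and 7.52 in BATF-/- day 3 arrays and at 10.65, 10.28 and 9.55 in BATF-/- naive arrays. Wild-type values were 7.78, 7.76, 7.84 and 7.71 at day 3, and 10.44 and 10.28 in naive arrays. Igfbp4 kept 16.0% of its naive level in BATF-/- cells (log2 difference -2.64 ± 0.18, limma adjusted p = 4.87e-08) and 16.6% in wild-type cells (-2.59 ± 0.20, limma adjusted p = 2.32e-07). Its 6 probe sets ranged from -0.43 to -2.87 in BATF-/- cells and from -0.24 to -2.66 in wild-type cells, and the one at -0.24 did not pass (limma adjusted p = 0.121).

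Over the 35 probe sets, 32 passed as lower in BATF-/- cells and 32 in wild-type cells, and none passed as higher. The 3 that did not pass in wild-type cells were 1 each of Foxo1, Satb1 and Igfbp4, and in BATF-/- cells 1 each of Foxo1, Satb1 and Foxp1. The Foxo1 and Satb1 probe sets among these were the 2 of the 35 below the dim limit, which is the level under which the lowest 40% of probe sets lie. Groups did not overlap for 28 of the 35 probe sets in BATF-/- cells and 33 in wild-type cells, where the shares over all probe sets were 40.7% and 53.1%.

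**Figure D2:**
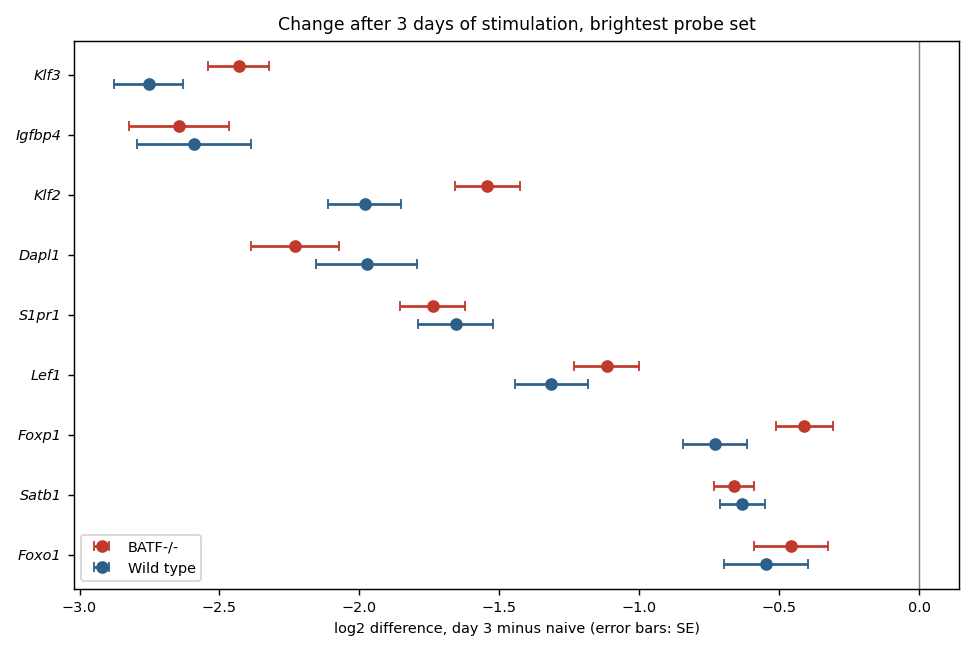
Log2 difference between day 3 and naive arrays (horizontal axis) for the brightest probe set of each gene (vertical axis), in BATF-/- (red) and wild-type cells (blue), with SE as bars. All values lie below 0, from -2.64 for Igfbp4 in BATF-/- cells and -2.75 for Klf3 in wild-type cells to -0.41 for Foxp1 in BATF-/- cells.

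RNA of most other cell types listed was lower at day 3 as well, and its part in these falls was not tested. Of 7 B cell markers 6 passed as lower in BATF-/- cells and 4 in wild-type cells. Their summed intensity was 340 to 361 in BATF-/- and 314 to 375 in wild-type day 3 arrays, against 2429 to 3973 in BATF-/- and 1381 to 2194 in wild-type naive arrays. Of 8 neutrophil and monocyte markers 7 passed as lower in BATF-/- cells and 4 in wild-type cells. The sums were 180 to 204 and 184 to 199 at day 3, against 728 to 8151 in BATF-/- and 813 to 996 in wild-type naive arrays, where BATF-/- naive replicate 1 had the 8151 and the other BATF-/- naive arrays 728 and 1795. The CD8 T cell markers summed to 26645 to 28880 in BATF-/- and 27939 to 29311 in wild-type day 3 arrays, against 24855 to 33742 in BATF-/- and 31620 to 34031 in wild-type naive arrays, and 3 of 6 passed as lower in each genotype. All 4 NK cell markers and all 4 platelet markers passed as lower in both genotypes, as did 4 and 3 of 5 dendritic cell markers in BATF-/- and wild-type cells. Of 3 erythroid markers 2 passed as lower in each genotype. The CD4 T cell markers went the other way: of 4, 0 passed as lower, and 3 passed as higher in BATF-/- and 1 in wild-type cells. Of 7 markers of endothelium, another site of high Klf2 and S1pr1, and stroma, 2 passed as lower in each genotype, Pecam1 and Cdh5 in BATF-/- cells and Pecam1 and Tek in wild-type cells. Their sums were 200 to 258 in BATF-/- and 230 to 239 in wild-type day 3 arrays, against 287 to 342 in BATF-/- and 347 to 362 in wild-type naive arrays. Cdh5, Tek, Col1a1 and Col3a1 had group means below the dim limit in all 4 groups, and Pecam1, which T cells and other leukocytes also express, was the brightest.

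**Figure D3:**
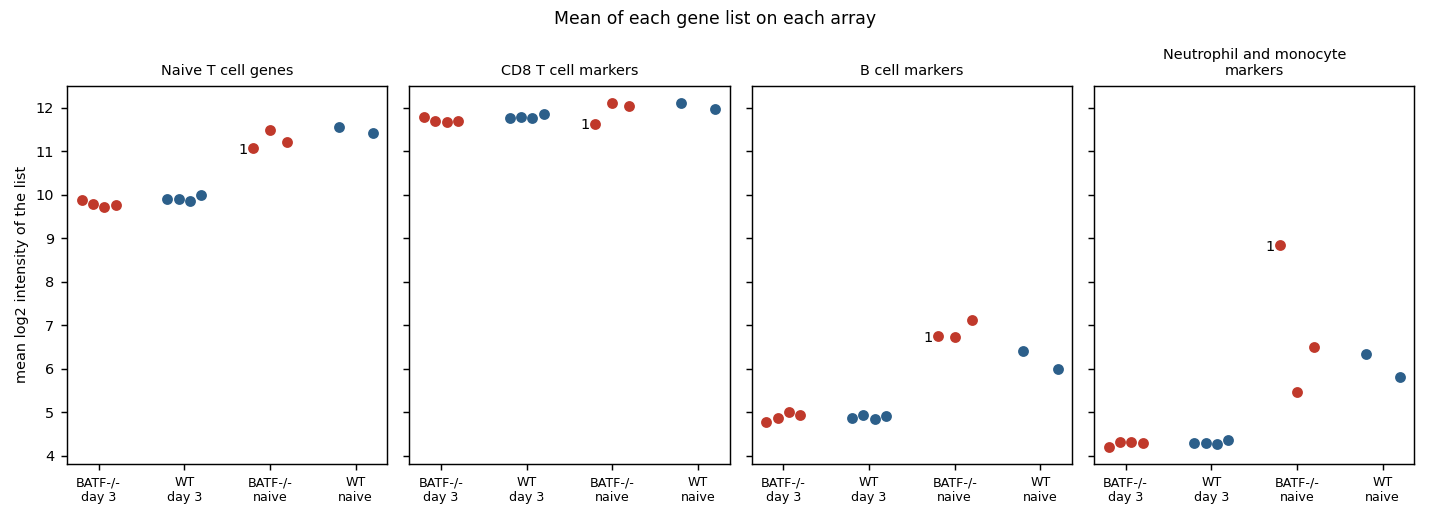
Mean log2 intensity (vertical axis) of the 9 naive T cell genes and of CD8 T cell, B cell, and neutrophil and monocyte markers on each array (points) of the 4 groups (horizontal axis). The point marked 1 is BATF-/- naive replicate 1, which has the highest neutrophil and monocyte mean (8.84) and, among naive arrays, the lowest mean of CD8 markers (11.63) and of the naive T cell genes (11.07).

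At day 3 the question was whether the loss of the naive program depends on BATF. None of the 9 genes passed between BATF-/- and wild-type cells in the limma fit over all arrays, and 0.773% of all probe sets did. At an unadjusted p under 0.05 there were 4 of 9, Klf2, S1pr1, Satb1 and Dapl1, and 10.7% of all probe sets. Among the 9 the sign was not uniform, with 6 values below 0 and 3 above, and the median was -0.11.

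The 4 day 3 arrays of each genotype did not overlap for 5 of the 9 genes, each taken by its brightest probe set. Over the 35 probe sets 9 did not overlap, against 9.83% of all probe sets. Klf2 was the one of the 5 genes that was higher on every BATF-/- array. Its lowest BATF-/- value was 10.59 and its highest wild-type value was 10.48, and the log2 difference was 0.27 ± 0.11 (SE, n = 4 and 4, 95% interval 0.04 to 0.50, limma adjusted p = 0.35), or 1.21-fold. S1pr1, the receptor that Klf2 drives, was lower on every BATF-/- array, with a highest BATF-/- value of 8.50 and a lowest wild-type value of 8.73. Its log2 difference was -0.40 ± 0.11 (95% interval -0.64 to -0.17, limma adjusted p = 0.129). Klf2 and S1pr1 thus stood on opposite sides of 0 at day 3.

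Dapl1 was lower on every BATF-/- day 3 array too, with values up to 9.39 in BATF-/- and from 9.48 in wild-type cells, and a log2 difference of -0.52 ± 0.15 (95% interval -0.83 to -0.20, limma adjusted p = 0.152). Satb1 had values of 11.91, 11.83, 11.77 and 11.73 in BATF-/- day 3 arrays, against 12.05, 11.95, 12.00 and 12.05 in wild-type day 3 arrays, a log2 difference of -0.20 ± 0.07 (95% interval -0.34 to -0.06, limma adjusted p = 0.241). Igfbp4 also did not overlap, at -0.26 ± 0.17 (95% interval -0.61 to 0.10, limma adjusted p = 0.651). The brightest probe sets of the remaining 4 genes overlapped between the genotypes. Their log2 differences were 0.05 (95% interval -0.16 to 0.27) for Klf3, -0.02 (-0.26 to 0.21) for Lef1, -0.11 (-0.37 to 0.16) for Foxo1 and 0.08 (-0.12 to 0.28) for Foxp1. Another Foxp1 probe set was higher on every BATF-/- day 3 array (0.13 ± 0.09, limma adjusted p = 0.662).

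The calls at day 3 depended on how the spread was estimated, since the spread of the naive arrays enters the fit over all arrays. With the 8 day 3 arrays alone, S1pr1 (limma adjusted p = 0.0232), Klf2 (limma adjusted p = 0.0488) and Dapl1 (limma adjusted p = 0.0497) passed, and with array quality weights Satb1 did as well (limma adjusted p = 0.0469). S1pr1 alone also passed without BATF-/- naive replicate 1 (limma adjusted p = 0.0315) or replicate 2 (limma adjusted p = 0.0382), arrays that do not enter its difference. Counts over all probe sets rose as well, from 348 in the fit over all arrays to 894 with the 8 day 3 arrays alone. They were 1659 with weights, 770 without BATF-/- naive replicate 1 and 426 without replicate 2. None of the 6 CD8 T cell, 7 B cell, or 8 neutrophil and monocyte markers passed between the genotypes at day 3. On each day 3 array 2 to 4 of these B cell and 3 to 6 of these neutrophil and monocyte markers lay under 4.35, the level below which 40% of probe set means lie. Their not passing therefore says little.

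**Figure D4:**
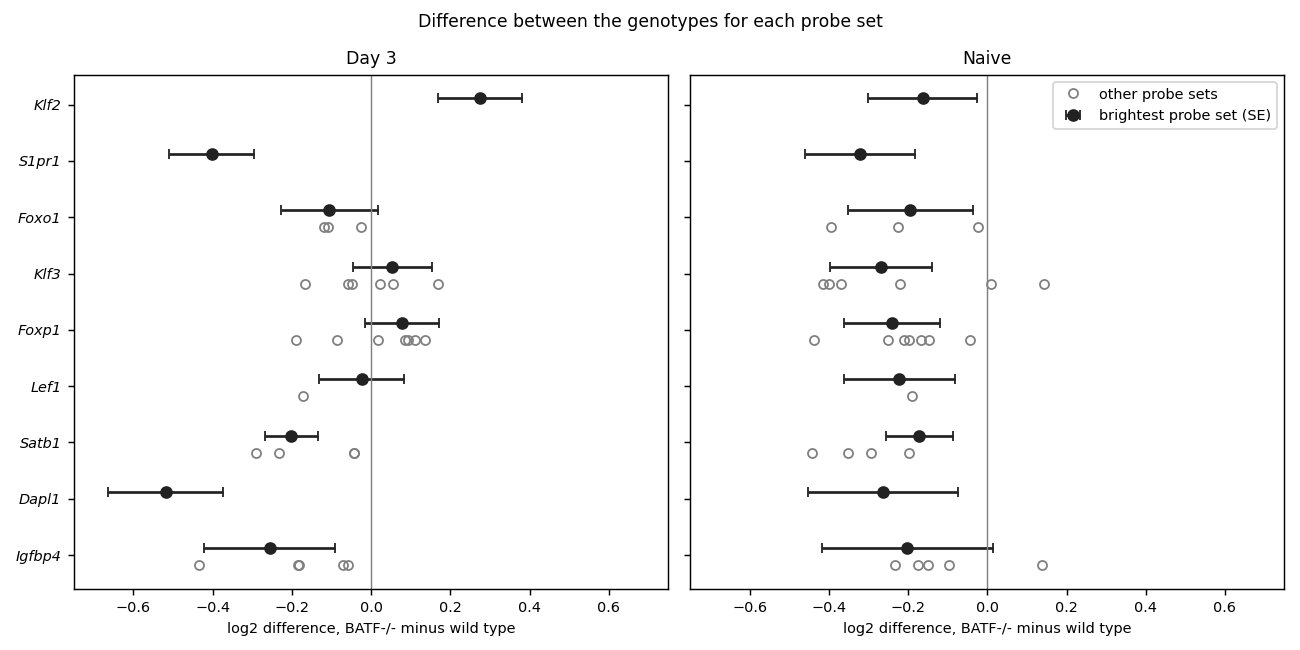
Log2 difference between BATF-/- and wild-type cells (horizontal axes) at day 3 (left) and in naive cells (right) for the brightest probe set of each gene (filled, with SE) and its other probe sets (open). At day 3 Klf2 (0.27) lies right of 0 and S1pr1 (-0.40) and Dapl1 (-0.52) lie left of it, and in naive cells all 9 brightest probe sets lie left of 0.

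The other probe sets of a gene mostly gave the same sign at day 3. All 5 probe sets of Satb1 (-0.04 to -0.29) and all 6 of Igfbp4 (-0.06 to -0.44) were below 0, as were the 4 of Foxo1 and both of Lef1. The 8 of Foxp1 (-0.19 to 0.13) and the 7 of Klf3 (-0.17 to 0.17) lay on both sides. None of the 35 passed in the limma fit over all arrays.

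In naive cells none of the 9 genes passed between the genotypes either, and 0.739% of all probe sets did. At an unadjusted p under 0.05 there was 1 of 9, S1pr1, and 13.6% of all probe sets, so this count is near the background. All 9 values lay below 0, between -0.16 (Klf2) and -0.32 (S1pr1), with a median of -0.22 where that over all probe sets was -0.01. By the brightest probe sets, groups did not overlap for Klf3 and Satb1, 2 of the 9, and 24.9% of all probe sets also did not overlap. Over the 35 member probe sets 10 did not overlap, 32 lay below 0 and 0 passed. Klf3 had 11.63, 11.90 and 11.85 in BATF-/- naive arrays, against 12.00 and 12.11 in wild-type naive arrays (log2 difference -0.27 ± 0.13, n = 3 and 2, 95% interval -0.55 to 0.01, limma adjusted p = 0.39). Satb1 had 12.36, 12.59 and 12.46 in BATF-/- naive arrays, against 12.65 and 12.64 in wild-type naive arrays (log2 difference -0.17 ± 0.09, limma adjusted p = 0.405). The Klf3 probe sets ranged from -0.41 ± 0.10 (limma adjusted p = 0.0784) to 0.14 ± 0.14.

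These naive differences moved with BATF-/- naive replicate 1. It had the lowest value of the 3 BATF-/- naive arrays for 8 of the 9 genes, all but Igfbp4, and for 29 of the 35 probe sets, where 42.3% of all probe sets had their lowest value on it. Its value minus the mean of the other BATF-/- naive arrays had a median of -0.43 over the 9 genes, and the CD8 marker mean was 11.63 on it, against 12.10 and 12.04 on the others. Without it the naive log2 difference was 0.0012 for Klf2, 0.0092 for Foxo1, -0.08 for Lef1, -0.09 for Dapl1, -0.10 for Foxp1, -0.12 for Satb1, -0.18 for S1pr1, -0.19 for Klf3 and -0.44 for Igfbp4, and none of the 9 passed. Of the 7 B cell markers 3 passed as higher in BATF-/- naive cells, and 1 did without that array. Likewise 1 of 4 NK cell markers passed as higher (median over the 4 of 0.98), also without that array (median 0.48), and 1 of 3 erythroid markers did, but 0 of 3 without that array. The part of these cells in the differences was not tested. S1pr1 passed in naive cells without BATF-/- naive replicate 2 (log2 difference -0.48, limma adjusted p = 0.0405), the array with the highest S1pr1 value of the 3.

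The change from naive to day 3 was also compared between the genotypes, as the difference of the 2 changes. None of the 9 genes passed in limma, and 0.306% of all probe sets did. At an unadjusted p under 0.05 there was 1 of 9, Klf2, where 11% of all probe sets were, so this count too is near the background. Klf2 had the largest value, 0.44 ± 0.17 (limma adjusted p = 0.373), meaning a smaller fall without BATF. Klf3 (0.32 ± 0.16) and Foxp1 (0.32 ± 0.15) followed, and Dapl1 had the lowest value (-0.26 ± 0.24). Without BATF-/- naive replicate 1 the values were 0.27 for Klf2, 0.24 for Klf3, 0.18 for Foxp1 and -0.43 for Dapl1, which was then the largest in size among the 9, and none of the 9 passed.

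Other genes of the same pathways were taken as lists, and described by counts. As a background for each list, 19.8% of all 45037 probe sets passed as lower in BATF-/- cells and 20.8% in wild-type cells. Those that passed as higher numbered 8312 in BATF-/- cells and 8052 in wild-type cells. Of 22 quiescence regulators 21 were measured, and 12 fell and 1 rose in BATF-/- cells, while 10 fell and 2 rose in wild-type cells. Their median log2 difference was -0.38 and -0.27, where the medians over all probe sets were 0.04 and 0.03. The falls were led by Klf4, a relative of Klf2 that restrains proliferation, which was at least 7.93-fold lower in BATF-/- cells and at least 4.55-fold lower in wild-type cells, as its day 3 means lay below the dim limit. Its naive means were 7.33 in BATF-/- arrays, replicate 1 included, and 6.53 in wild-type arrays. The part of other cell types in these folds was not tested. The antiproliferative gene Btg1 (-1.38 and -1.18) and Slfn2 (-1.28 and -1.26), which is needed for quiescence, also fell. Foxo3, a relative of Foxo1, rose in both (0.32 and 0.42), and the CDK inhibitor gene Cdkn1b rose in wild-type cells (0.42). Between the genotypes at day 3 Runx1 passed (0.32 ± 0.06, limma adjusted p = 0.0261), and 20 of the 21 did not. In the difference of the changes 0 of the 21 passed.

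Of 12 homing and naive surface genes 9 were measured, and 5 fell and 1 rose in each genotype (medians -0.50 in BATF-/- and -0.52 in wild-type cells). The gut-homing receptor gene Ccr9 (-4.44 in BATF-/- and -5.88 in wild-type cells), the interleukin 7 receptor gene Il7r (-3.18 and -2.27) and the interleukin 6 receptor gene Il6ra (-2.70 and -3.23) led the falls, and the chemokine receptor gene Cxcr4 rose (1.07 in both). Il7r, a target of Foxo1 that Foxp1 opposes, lay at 9.59, 9.40, 9.21 and 9.16 in BATF-/- day 3 arrays, against 10.31, 10.45, 10.35 and 10.55 in wild-type day 3 arrays. The groups did not overlap. Between the genotypes at day 3, Il7r passed as lower (-1.08 ± 0.10, limma adjusted p = 0.000199) and Ccr9 as higher in BATF-/- cells (0.84 ± 0.13, limma adjusted p = 0.0107), and the other 7 did not pass. Both also passed in the difference of the changes, Il7r at -0.91 (limma adjusted p = 0.0381) and Ccr9 at 1.44 (limma adjusted p = 0.0144). Ccr7, the receptor that guides naive cells into lymph nodes, was at -0.0047 and -0.03 and did not pass.

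Of 18 genes of the sphingosine 1-phosphate and egress pathway 17 were measured, and 12 fell and 2 rose in BATF-/- cells, while 10 fell and 2 rose in wild-type cells (median -0.45 in both). The kinase gene Sphk1, which makes the ligand, was at least 4.69-fold lower in BATF-/- and at least 3.07-fold lower in wild-type cells. The receptor gene S1pr5 was at least 2.36-fold and at least 1.79-fold lower, with day 3 means of both genes below the dim limit. Naive means in BATF-/- arrays, replicate 1 included, and in wild-type arrays were 6.57 and 5.96 for Sphk1 and 5.59 and 5.19 for S1pr5. The part of other cell types in these folds was not tested either. Sgpl1, the lyase that degrades the ligand, fell (-1.32 in BATF-/- and -1.40 in wild-type cells), as did Cd69 (-0.94 and -1.03), whose protein removes S1pr1 from the cell surface. S1pr2, a receptor that restrains migration, rose (0.63 and 0.41), as did the GTPase gene Rac1 (0.45 and 0.40). None of the 17 passed between the genotypes at day 3 or in naive cells.

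All 15 partners and related factors of Tcf7 and Lef1 were measured, and 8 fell and 2 rose in each genotype (medians -0.33 in BATF-/- and -0.35 in wild-type cells). The falls were led by Id3, an inhibitor of E proteins (-1.86 and -1.80), Tox (-1.66 and -1.44) and Myb (-1.35 and -1.19). The beta-catenin gene Ctnnb1 (0.22) and its adaptor gene Bcl9 (0.50) passed as higher in BATF-/- cells, and the corepressor genes Tle1 (0.41) and Tle2 (0.78) in wild-type cells. In the difference of the changes 0 of the 15 passed, so these rises are not shown to differ between the genotypes. At day 3 Tle2 was lower in BATF-/- cells (-0.63 ± 0.11, limma adjusted p = 0.0217), and the other 14 did not pass. Without BATF-/- naive replicate 1 the counts of falls in BATF-/- cells were 13 of 21 quiescence regulators, 6 of 9 homing genes, 11 of 17 egress genes and 8 of 15 partners of Tcf7 and Lef1. Between the genotypes at day 3, 1 of the 15 partners then passed as higher and 2 as lower in BATF-/- cells, and 1 of the 21 quiescence regulators passed as higher and 1 as lower.

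Of 8 genes known to mark activation, 5 rose and 1 fell in BATF-/- cells and 6 rose and 1 fell in wild-type cells. Il2ra (5.18 and 5.36), the interleukin 2 receptor alpha chain gene, and Gzmb (5.67 and 6.14), the granzyme B gene, rose in both. Between the genotypes at day 3, 1 of the 8 passed, Tbx21, which was lower in BATF-/- cells (-0.89, limma adjusted p = 0.00698). In naive cells Cd44 (0.64, limma adjusted p = 0.0126) and Irf4 (0.75, limma adjusted p = 0.0445) passed as higher and Myc (-0.45, limma adjusted p = 0.0413) as lower in BATF-/- cells. Without BATF-/- naive replicate 1 the counts were also 2 higher and 1 lower of the 8. These calls rest on the fit over all arrays. With the naive groups alone 2 of all 45037 probe sets passed, and 0 passed as higher. The part of other cell types was not tested. From naive to day 3, Tbx21, the gene of the effector factor T-bet, fell in BATF-/- cells (-0.71), and Myc fell in wild-type cells (-0.87).

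For each of the 9 genes the gene with the most similar profile was found by Pearson correlation over the 13 arrays among 18192 other genes. Naive and day 3 arrays form separate clusters, so such a correlation mostly reflects the state, and between 33 (Foxo1) and 1436 (Klf3) genes reached more than 0.95. The most similar gene was Mdn1 for Klf2 (r = 0.998), Mylip for Klf3 (0.998), Pptc7 for S1pr1 (0.995), Wbp1l for Lef1 (0.996), Elk4 for Foxo1 (0.98) and Skil for Foxp1 (0.988). It was Itgae, the integrin CD103, for Satb1 (0.993), Rassf5 for Dapl1 (0.995) and Clint1 for Igfbp4 (0.995).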

How the data were processed

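RNA of 13 samples was measured on oligonucleotide arrays. The deposited values are probe set intensities from RMA, a tool that the submitters' processing notes name without a version. They lie between 3.25 and 27465, so they are linear, and were converted to log2 here without further normalisation. Probe sets were named from the platform annotation (34958 with 1 gene, 932 with several, 9211 with none), and 64 control probe sets were left out. Of the identifiers, 34754 were found in RefSeq (GRCm38.p6). A model of the 4 groups was estimated over the 13 arrays in R 4.3.3 with limma 3.58.1 (lmFit, eBayes, two-sided, Benjamini-Hochberg over 45037 probe sets). A gene is represented by the probe set with the highest mean. The dim limit is the level below which 40% of probe set means lie, and folds against a group below it use that limit and are written as "at least". The fit was also run on simulated data with known changes, for the genotype difference at day 3 only. The simulated noise was independent and held no array that stands apart, so the other comparisons were not covered.

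The members and lists were chosen with earlier results of these data known. Named genes are the 10 members, Batf, up to 4 genes a list with the largest passing differences or against the direction of the list, and the most similar gene of each member. Cd8a, Cd3e, the named endothelium and stroma markers, the unpassed Ccr7 and the naive genotype calls among activation genes were named beside these, after their values were seen. Whether replicate arrays stem from different mice or cultures is not given in the labels, so p-values measure the spread between arrays, which may be technical. The number of arrays limits the precision. Arrays with the same replicate number were not paired: their deviations from the group means correlated between -0.20 and 0.05. Alternatives covered normalisation, filter, probe set choice, spread, weights, the replicate block, the samples in the fit and leaving out each array, and 2 more, the compared groups and the list counts without BATF-/- naive replicate 1, were chosen after seeing the data.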

Additional observations from a re-analysis of the deposited data

How the results depend on the processing

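The falls after stimulation passed for all 9 genes in both genotypes under every alternative run, apart from the following. Foxo1 lost its call without the naive arrays named above. The brightest probe sets of Foxo1, Foxp1 and Satb1 lie under a minimum change of 2-fold. Between the genotypes at day 3, 4 of the 9 genes passed with array quality weights and 3 with the compared groups alone, against 0. Leaving out each array in turn gave 0 to 1 member genes at day 3 and 0 to 1 in naive cells. Over all probe sets, counts moved more. At day 3 (348) they were 528 without the dim 40%, 534 with an intensity trend, 1659 with weights, 163 with the replicate block, 894 with the compared groups alone, 49 at 2-fold and 127 to 770 with an array left out. In naive cells (333) they were 196 with 1 probe set a gene, 188 with the mean of a gene's probe sets, 662 with weights, 142 with the replicate block, 2 with the compared groups alone, 96 at 2-fold, 169 to 1623 with an array left out, and 4 with the compared groups alone and without BATF-/- naive replicate 1. For the stimulation, with 1 probe set a gene, the mean of its probe sets and a 2-fold minimum, they were 8545, 8430 and 3501 in BATF-/- cells and 8258, 8134 and 4255 in wild-type cells, where fewer features are tested in the first pair of settings. For the difference of the changes (138) they were 214 with the trend, 510 with weights, 47 with the block, 77 at 2-fold and 69 to 531 with an array left out. The replicate block changed no call of a member gene; same-numbered arrays deviated from their group means with correlations between -0.20 and 0.05.

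Values near 0 changed sign. In the difference of the changes, Satb1 was 0.13 with the mean of its probe sets, and with weights Foxo1 was -0.036 and Igfbp4 0.33. With an array left out, that value ranged from -0.23 to 0.074 for S1pr1, from -0.11 to 0.23 for Foxo1, from -0.086 to 0.031 for Satb1 and from -0.36 to 0.19 for Igfbp4. The naive difference ranged from -0.30 to 0.0012 for Klf2, from -0.34 to 0.0092 for Foxo1 and from -0.44 to 0.10 for Igfbp4, and the day 3 difference of Klf3 from -0.0075 to 0.14. The Klf2 and Foxo1 naive values of 0.0012 and 0.0092 are the same with the compared groups alone. This is no further check, because a difference of group means does not depend on the other groups. The cause of these shifts was not tested. Signals of the 2 probe sets below the dim limit carry little information.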
